A study of Homo sapiens with 8 samples.

Results

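Chromatin immunoprecipitation followed by sequencing (ChIP-seq) in 697, a human cell line of pre-B leukaemia origin, placed OCAB and OCT2 at 1831 shared sites, each an overlap of at least 1 bp between a peak of either list. These sites took in 41.2% of the 4440 OCAB peaks and 22.5% of the 8129 OCT2 peaks, out of 159806 peaks in the 7 lists of the series. Every overlap held 1 peak of each list. Each height, in tags per 10 M (1 M is 1e+06) tags of the library, was turned into a percentile of its own list, from 0 for the lowest peak to 100 for the highest, and the OCT2 percentile was subtracted from the OCAB percentile. The classes were chosen by this difference in measured height ranks. Sites with a difference above 25 points are called OCAB-leaning (352 sites, 19.2% of those compared), sites below -25 points OCT2-leaning (535 sites, 29.2%), and the other 944 sites balanced. Because OCAB and OCT2 heights chose these classes, heights, folds and focus of both peaks are described here with no test.

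The cells were grown in medium with 10% fetal bovine serum, and each of the 7 antibodies (AIOLOS, IKAROS, MTA2, Mi2, HDAC2, OCAB and OCT2) had 1 library beside 1 input library of genomic DNA. The OCAB library held about 17.6 M tags and the OCT2 library about 18.3 M tags, recovered from tags and heights of high peaks. With 1 library per antibody and 1 cell line there is no replicate error. Intervals below are 95% intervals for the counting of sites and say nothing about how a second library would differ. They are Wilson for a share, Newcombe for a difference of shares not averaged over height classes, and order statistics for a median.

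OCT2 is a POU-domain transcription factor of B cells that binds the octamer element, a motif of immunoglobulin promoters and enhancers. OCAB, also called OCA-B, is a B-lineage coactivator that joins octamer-binding POU factors on DNA and is known for its part in germinal centre formation and late B-cell maturation. NuRD couples nucleosome remodelling to histone deacetylation: Mi2 is its remodelling ATPase, HDAC2 a deacetylase and MTA2 a scaffold subunit. IKAROS and AIOLOS are zinc-finger factors of lymphocytes that are known to associate with NuRD. A height balance asks whether sites where 1 member of the OCAB and OCT2 pair gives the higher signal differ in the company they keep.

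Among shared sites, the measured heights of both proteins went together only weakly. Over the 1831 sites the OCAB and OCT2 percentiles had a Spearman rho of 0.278, given as a description over sites that share both libraries. Peaks without a partner are left out of this value. Counting error in the ranks can also lower it, by an amount that was not tested. The sites sat above the middle of both lists, with a median percentile of 60.5 in the OCAB list and 69.6 in the OCT2 list. OCAB-leaning sites had a median OCAB height of 32.5 (57 tags) and a median OCT2 height of 11.5 (21 tags). OCT2-leaning sites had a median OCAB height of 13.7 (24 tags) and a median OCT2 height of 26.2 (48 tags). Balanced sites lay between, with medians of 21.7 for OCAB and 19.1 for OCT2. Median fold over input followed the same order: 25.4 for OCAB and 8.89 for OCT2 at OCAB-leaning sites, 8.88 for OCAB and 15.1 for OCT2 at OCT2-leaning sites.

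The weaker member was not always a low peak of its list: the OCT2 percentile at OCAB-leaning sites had an upper quartile of 50.3 and a maximum of 71.2, and the OCAB percentile at OCT2-leaning sites an upper quartile of 53.5 and a maximum of 73.1. The 25-point rule itself caps the percentile of the weaker member, so these maxima follow from it. Ranks near the middle of both lists carry much counting error. A peak with the OCAB list's median of 28 tags has an exact Poisson interval of 18.6 to 40.5 tags, which spans the 15.9th to the 72.6th percentile of that list. For the OCT2 list's median of 26 tags the interval of 17 to 38.1 tags spans the 14.1th to the 76.4th percentile. When both tag counts were moved toward each other by 1 SD of counting, 162 of the 352 OCAB-leaning sites (46%) and 204 of the 535 OCT2-leaning sites (38.1%) stayed past the 25-point limit. The text therefore gives class totals and leaves single sites as examples.

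**Figure D1:**
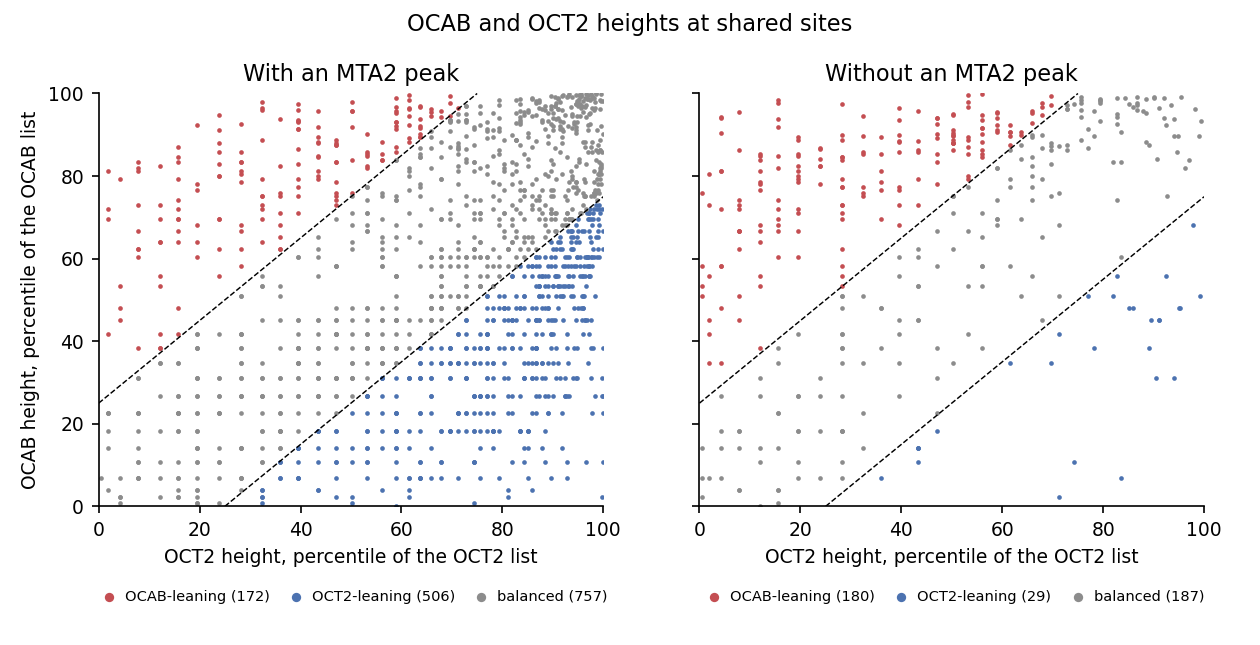
Each point is 1 of the 1831 sites, placed by its OCT2 percentile (horizontal) and OCAB percentile (vertical); dashed lines mark differences of 25 points. The OCT2-leaning corner holds 506 sites with an MTA2 peak (left panel) and 29 without (right panel), while the OCAB-leaning corner is split into 172 and 180.

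The 5 most extreme sites on the OCAB side held no NuRD peak. The largest lean to OCAB lay on chromosome 11 from 62369286 to 62369752 (coordinates of build hg19 throughout), where OCAB stood at 61.5 and OCT2 at 7.64. None of MTA2, HDAC2, Mi2 and IKAROS had a peak there, and the AIOLOS height was 21.8. The next, on chromosome 9 from 87619733 to 87620017, had heights of 58.7 for OCAB, 7.64 for OCT2, 11.1 for IKAROS and 12.4 for AIOLOS, with no NuRD subunit. On chromosome 13, 46448147 to 46448478, the OCAB height was 70.1, the OCT2 height 8.18 and the IKAROS height 8.98, and AIOLOS and the 3 NuRD subunits had no peak. The site on chromosome 2 from 218525134 to 218525442 had heights of 46.2 for OCAB, 7.64 for OCT2, 15 for IKAROS and 9.96 for AIOLOS. On chromosome 7, 44122137 to 44122411, OCAB reached 115.7 and OCT2 9.27 with their centres at the same base, and no other protein had a peak. These 5 sites thus held 0 peaks of the NuRD subunits, and their IKAROS peaks ranked low, between the 10.8th and the 34.7th percentile of the IKAROS list. Among all 64 sites with a difference above 60 points, MTA2 was present at 35.9%, HDAC2 at 20.3% and Mi2 at 6.25%.

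Extreme sites on the OCT2 side looked different. On chromosome 18, 29665231 to 29665514, OCAB stood at 7.98 and OCT2 at 129.8, with heights of 20.1 for MTA2, 11 for HDAC2, 42.8 for IKAROS and 29.9 for AIOLOS. On chromosome 7, 150452517 to 150452880, OCAB stood at 9.69 and OCT2 at 193.7, beside an MTA2 height of 59.5 and an HDAC2 height of 27.5, and IKAROS reached 94.9. The site on chromosome 19 from 11132673 to 11132957 had heights of 9.12 for OCAB, 34.9 for OCT2 and 24.5 for MTA2. On chromosome 10, 133001680 to 133001970, OCAB was 9.69, OCT2 46.4, MTA2 49.9 and IKAROS 145. On chromosome 4, 101028232 to 101028515, OCAB was 9.12, OCT2 30, MTA2 28.9 and IKAROS 109.1. All 5 of these sites held MTA2, HDAC2, IKAROS and AIOLOS, and none held Mi2, the remodelling ATPase. Among all 66 sites with a difference under -60 points, Mi2 was present at 31.8%, MTA2 at 93.9% and HDAC2 at 92.4%.

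Sites high in both lists did not form 1 kind. The balanced site with the highest mean percentile, on chromosome 17 from 62009620 to 62009908, had heights of 337.3 for OCAB and 92.7 for OCT2, with MTA2 at 49.5 and HDAC2 at 44.9. On chromosome 19, 44123994 to 44124298, OCAB was 355 and OCT2 62.2, while MTA2 reached 16.6, near the middle of its list (percentile 52.8), and HDAC2 had no peak. The balanced site on chromosome 11 from 62609087 to 62609361 carried 111.1 for OCAB and 178.9 for OCT2 beside heights of 549.1 for MTA2, 2161 for IKAROS and 2171 for AIOLOS, each at percentile 100 of its list after rounding. Its fold over input was low for its height, at 6.38 for OCAB and 5.07 for OCT2. The remaining pair of named sites, on chromosome 11 from 128480834 to 128481114 and on chromosome 2 from 113932803 to 113933094, had OCAB heights of 235.3 and 117.9, OCT2 heights of 63.3 and 88.9 and MTA2 heights of 39.8 and 18, with no HDAC2 or Mi2 peak.

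Sites next to the limits show how fine the division is. Just inside the OCAB limit lay a site on chromosome 7 from 104992519 to 104992862, at 25.04 points (OCAB height 63.2, OCT2 height 18.5), and just outside it a site on chromosome 20 from 48247056 to 48247361, at 24.99 points (OCAB 47.3, OCT2 17.5). On the other side, a site on chromosome 12 from 25476670 to 25477017 was just inside at -25.01 points (OCAB 12.5, OCT2 15.3), and one on chromosome 19 from 11390615 to 11390889 just outside at -24.72 points (OCAB 23.9, OCT2 69.3).

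Presence of the 5 other proteins comes from other libraries and was not used to form the classes. MTA2, the scaffold subunit, had a peak at 172 of 352 OCAB-leaning sites (48.9%, interval 43.7 to 54.1), at 506 of 535 OCT2-leaning sites (94.6%, 92.3 to 96.2) and at 757 of 944 balanced sites (80.2%, 77.5 to 82.6), where 78.4% of all shared sites held one. The difference between OCAB-leaning and OCT2-leaning sites was -45.7 points (-51.1 to -40). OCAB-leaning minus balanced sites gave -31.3 points (-37 to -25.5), and OCT2-leaning minus balanced sites 14.4 points (11.1 to 17.5). Ranking by fold over input brought the first to -19.5 points (-25.2 to -13.8), and the 10000 highest peaks of each other list brought the second to 27 points (22.5 to 31.1). For comparison, MTA2 was present at 48.9% of the whole OCAB list and at 70.8% of the whole OCT2 list.

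HDAC2, the deacetylase, was present at 34.7% of OCAB-leaning sites (29.9 to 39.8), 86.9% of OCT2-leaning sites (83.8 to 89.5) and 64% of balanced sites (60.9 to 67), against 65.0% of all shared sites, 36.5% of the whole OCAB list and 54.1% of the whole OCT2 list. The OCAB-leaning and OCT2-leaning classes differed by -52.3 points (-57.7 to -46.3), the widest gap of the 5 over the whole lists. It was not the widest with the other peak's centre within 150 bp of the midpoint (HDAC2 -49.1, MTA2 -49.2) or among the 10000 highest peaks of each list. Mi2, which has the shortest of these 5 lists, was present at 12.8% of OCAB-leaning sites (9.69 to 16.7), 41.1% of OCT2-leaning sites (37 to 45.3) and 28.4% of balanced sites (25.6 to 31.3), against 29.1% of all shared sites, 16.4% of the whole OCAB list and 22.6% of the whole OCT2 list. Its difference between the leaning classes was -28.3 points (-33.6 to -22.7). The HDAC2 list reached up to a p-value over input of 9.5e-05, against 9.49e-11 in the OCAB list and 8.92e-10 in the OCT2 list. At a common limit of 1e-10 in all 7 lists the HDAC2 difference was -60.3 points (-65.3 to -54.5).

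The IKAROS family followed the same order. Over the whole lists, which hold 53948 IKAROS and 38101 AIOLOS peaks, its gaps were smaller than those of MTA2 and HDAC2. Among the 10000 highest peaks of each list they were larger than that of HDAC2. IKAROS was present at 73.9% of OCAB-leaning sites (69 to 78.2), 95% of OCT2-leaning sites (92.8 to 96.5) and 86.8% of balanced sites (84.4 to 88.8), against 86.7% of all shared sites, 59.1% of the whole OCAB list and 76.5% of the whole OCT2 list. The leaning classes differed by -21.1 points (-26.2 to -16.2). AIOLOS was present at 61.6% (56.5 to 66.6) of OCAB-leaning sites, 93.1% (90.6 to 94.9) of OCT2-leaning sites and 81.2% (78.6 to 83.6) of balanced sites, against 80.9% of all shared sites, 53.1% of the whole OCAB list and 69.7% of the whole OCT2 list, and its difference was -31.4 points (-36.9 to -25.9). IKAROS without AIOLOS was found at 15.3% of OCAB-leaning sites (12 to 19.5), 3.36% of OCT2-leaning sites (2.14 to 5.26) and 7.84% of balanced sites (6.29 to 9.73). Neither factor was found at 23% of OCAB-leaning sites (18.9 to 27.7), 3.55% of OCT2-leaning sites (2.29 to 5.48) and 10.9% of balanced sites (9.08 to 13.1). Ranking by fold over input in place of height brought the IKAROS difference between the leaning classes to -11.2 points (-15.9 to -6.81) and the AIOLOS difference to -17.2 (-22.5 to -12).

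**Figure D2:**
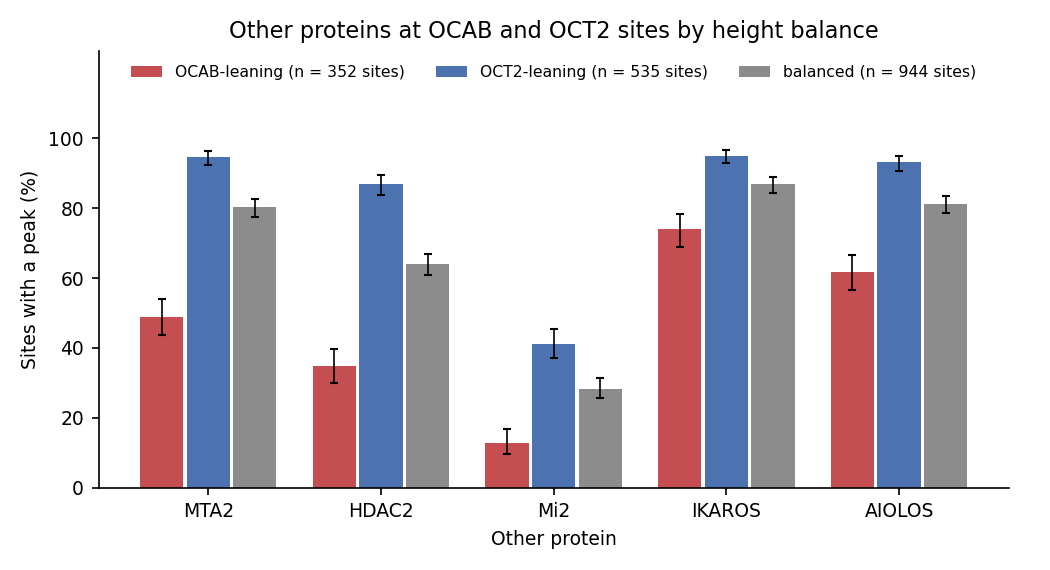
Bars give the percentage of OCAB-leaning (352), OCT2-leaning (535) and balanced (944) sites that hold a peak of each other protein; error bars are Wilson 95% intervals over sites. For each of the 5 proteins the OCAB-leaning bar is the lowest and the OCT2-leaning bar the highest, from 12.8% and 41.1% for Mi2 to 73.9% and 95% for IKAROS.

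Combinations of proteins also differed between the classes. No NuRD subunit was found at 41.5% of OCAB-leaning sites (36.4 to 46.7), 2.62% of OCT2-leaning sites (1.57 to 4.34) and 14% of balanced sites (11.9 to 16.3). All 3 subunits were found at 7.10% of OCAB-leaning sites (4.86 to 10.3), 36.6% of OCT2-leaning sites (32.7 to 40.8) and 23.5% of balanced sites (20.9 to 26.3). The mean number of the 5 other proteins was 2.32 per OCAB-leaning site (SD over sites 1.53), 4.11 per OCT2-leaning site (SD 0.913) and 3.41 per balanced site (SD 1.4). OCAB and OCT2 stood without any of the 5 at 60 OCAB-leaning sites (17%, 13.5 to 21.3), 1 OCT2-leaning site (0.187%, 0.033 to 1.05) and 57 balanced sites (6.04%, 4.69 to 7.74). The commonest combination at OCT2-leaning sites, MTA2 and HDAC2 with IKAROS and AIOLOS but no Mi2, took in 45.6% of them (41.4 to 49.8), against 15.9% of OCAB-leaning sites (12.5 to 20.1) and 33.3% of balanced sites (30.3 to 36.3). IKAROS with AIOLOS and no NuRD subunit was found at 13.6% of OCAB-leaning sites (10.4 to 17.6), 1.5% of OCT2-leaning sites (0.760 to 2.92) and 4.87% of balanced sites (3.67 to 6.44).

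The gap in NuRD was also present among sites with the same IKAROS family members, a comparison chosen after the values were seen. Among sites with both IKAROS and AIOLOS, MTA2 was present at 67% of 206 OCAB-leaning sites (60.3 to 73), 97.1% of 490 OCT2-leaning sites (95.3 to 98.3) and 91% of 745 balanced sites (88.7 to 92.9). The difference between the leaning classes was -30.2 points there (-36.9 to -23.8), and it was -42.6 for HDAC2 (-49.7 to -35.1) and -23.6 for Mi2 (-30 to -16.3). Among sites with neither factor, MTA2 was present at 12 of 81 OCAB-leaning sites, 11 of 19 OCT2-leaning sites and 23 of 103 balanced sites, a difference of -43.1 points between the leaning classes from few sites (-63 to -19.5). The reverse split was also made: among sites with MTA2, IKAROS was present at 91.9% of OCAB-leaning sites (86.8 to 95.1), 96.8% of OCT2-leaning sites (94.9 to 98) and 94.8% of balanced sites (93 to 96.2), and the leaning classes differed by -4.98 points (-10.2 to -1.22). Among sites without MTA2 the IKAROS difference was -5.40 points, with an interval of -22.3 to 14 that spans 0. AIOLOS differed by -13.7 points among sites with MTA2 (-20.3 to -8.08) and by -15.8 among those without it (-33.2 to 3.47). The IKAROS share at sites with MTA2 was thus 91.9% or more in every class.

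Presence did not change evenly along the balance. MTA2 was found at 93.9% of the 66 sites with a difference under -60 points (85.4 to 97.6), at 92.8% of the 307 sites between -25 and -10 points (89.4 to 95.2) and at 80.9% of the 397 sites between -10 and 10 (76.7 to 84.4). On the OCAB side it was found at 62.9% of the 240 sites between 10 and 25 points (56.6 to 68.8), 46.5% of the 144 sites between 40 and 60 (38.6 to 54.7) and 35.9% of the 64 sites above 60 (25.3 to 48.2). On the OCT2 side the MTA2 share thus stayed within its intervals, and the fall began near balance. HDAC2 was present at 92.4% of sites under -60 points (83.5 to 96.7) and 20.3% of sites above 60 (12.3 to 31.7). IKAROS ended higher, at 68.8% of sites above 60 points (56.6 to 78.8), and AIOLOS at 62.5% (50.3 to 73.3).

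**Figure D3:**
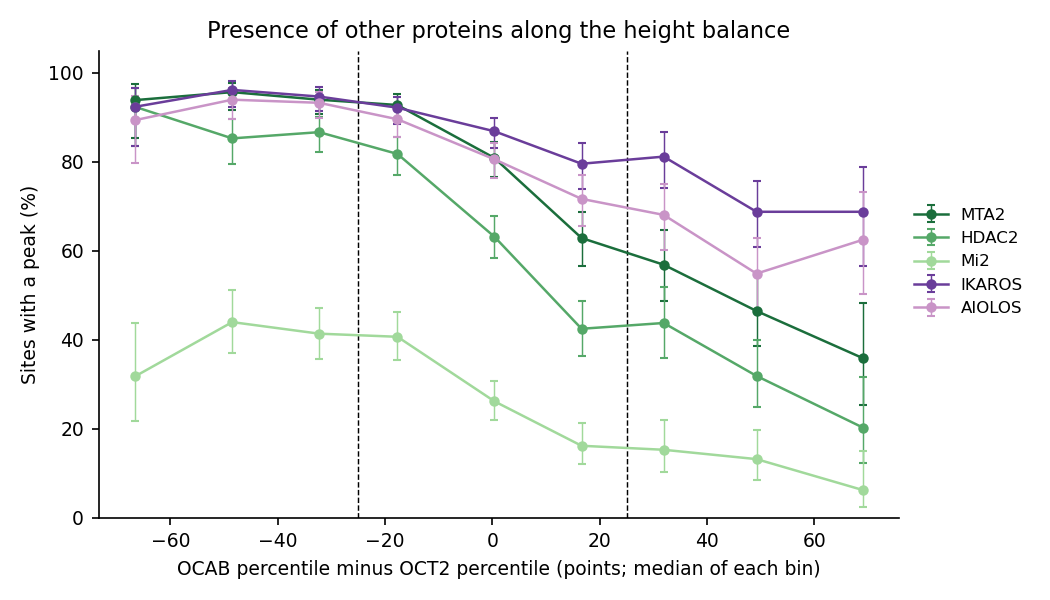
Points give the percentage of sites with a peak of each other protein (vertical) in 9 bins of the OCAB minus OCT2 percentile (horizontal, at the median of the bin), with Wilson 95% intervals; dashed lines mark the 25-point limits. MTA2 lies at 92.8% or above in the 4 bins under -10 points and at 35.9% in the last bin.

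Both heights went with MTA2, in opposite directions. Each list was cut into 3 height classes of about equal size, which gave 9 kinds of site. Where OCAB was in its highest class, MTA2 was present at 84% of 480 sites with OCT2 in its highest class (80.4 to 87) and at 41.4% of 128 sites with OCT2 in its lowest (33.2 to 50.1), a difference of 42.6 points (33.2 to 51.3). The same difference was 25 points with OCAB in its lowest class (16.5 to 33.1) and 37.4 with OCAB in its middle class (27 to 48.1). Where OCT2 was in its lowest class, MTA2 was present at 41.4% of sites with OCAB in its highest class and at 71% of 145 sites with OCAB in its lowest (63.2 to 77.8), a difference of -29.6 points (-40.2 to -17.9). With OCT2 in its middle class the same difference was -38.5 points (-45.7 to -30.1), and with OCT2 in its highest class -12 (-16.3 to -6.19). At a like OCT2 height, higher OCAB peaks thus had less MTA2. HDAC2 gave -28.6, -28.3 and -22.1 points for the lowest, middle and highest OCT2 class, each interval below 0, and Mi2 gave -19.6, -20.2 and -10.5, likewise. By OCT2 height, HDAC2 differed by 34.4, 59.6 and 40.9 points for the lowest, middle and highest OCAB class, each interval above 0. Mi2 differed by 8.63 points in the lowest OCAB class, with an interval of -2.58 to 19.7 that spans 0, by 28.9 in the middle (18.4 to 37.1) and by 17.7 in the highest (10.4 to 23.4).

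With the whole lists, the IKAROS interval was clear of 0 for OCT2 height in all 3 OCAB classes. For OCAB height it was clear of 0 in 1 of 3 OCT2 classes. From highest minus lowest OCT2 class it gained 20.7 points where OCAB was in its lowest class (12.4 to 28.8), 26.9 in the middle (17.6 to 37.4) and 22 in the highest (14.2 to 30.6). From highest minus lowest OCAB class the difference was -4.17 points with OCT2 lowest (-14.7 to 6.37), -20.3 with OCT2 in the middle (-26.8 to -13.2) and -2.91 with OCT2 highest (-6.67 to 2.76). The first and the last of these intervals span 0. With OCT2 highest, the IKAROS shares were 95.2%, 95.5% and 92.3% from the lowest to the highest OCAB class, which leaves little room for a difference. AIOLOS gave -8.63 (-19.6 to 2.58), -29 (-36.4 to -20.6) and -6.31 (-10.8 to 0.0125) in the same order.

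**Figure D4:**
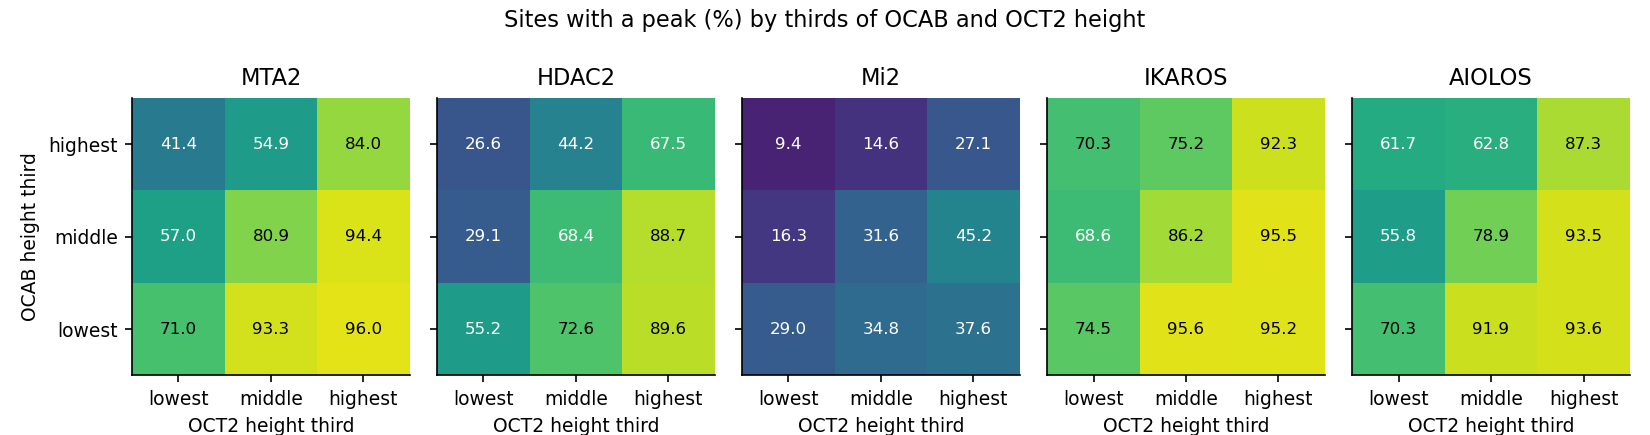
Each square is a class of sites by OCT2 height (horizontal, lowest to highest class of the OCT2 list) and OCAB height (vertical), and its number is the percentage of sites with a peak of the protein named above the panel. The MTA2 panel runs from 41.4% at high OCAB with low OCT2 to 96% at low OCAB with high OCT2.

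Other proteins were also higher where they were present at OCT2-leaning sites. MTA2 peaks had a median height percentile of 47 at OCAB-leaning sites (40.2 to 54.7), 92.3 at OCT2-leaning sites (90.9 to 92.9) and 84.3 at balanced sites (81.8 to 85.6). In height that was a median of 15.3 tags per 10 M at OCAB-leaning, 40.7 at OCT2-leaning and 29.8 at balanced sites, beside 16.2 for the whole MTA2 list. HDAC2 peaks had a median percentile of 52.7 at OCAB-leaning sites (46.1 to 58.7), 88.7 at OCT2-leaning sites (87.1 to 90.1) and 81.2 at balanced sites (78.5 to 83.4). IKAROS peaks had a median percentile of 65.3 at OCAB-leaning sites (60.3 to 69.3), 94.4 at OCT2-leaning sites (93.6 to 95.3) and 89.5 at balanced sites (88 to 90.7). For AIOLOS the median percentile was 54.4 at OCAB-leaning, 91.4 at OCT2-leaning and 84.8 at balanced sites. For Mi2 it was 62.4 at 45 OCAB-leaning, 80 at 220 OCT2-leaning and 74.3 at 268 balanced sites. In each of the 5 libraries the median was lowest at OCAB-leaning and highest at OCT2-leaning sites.

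**Figure D5:**
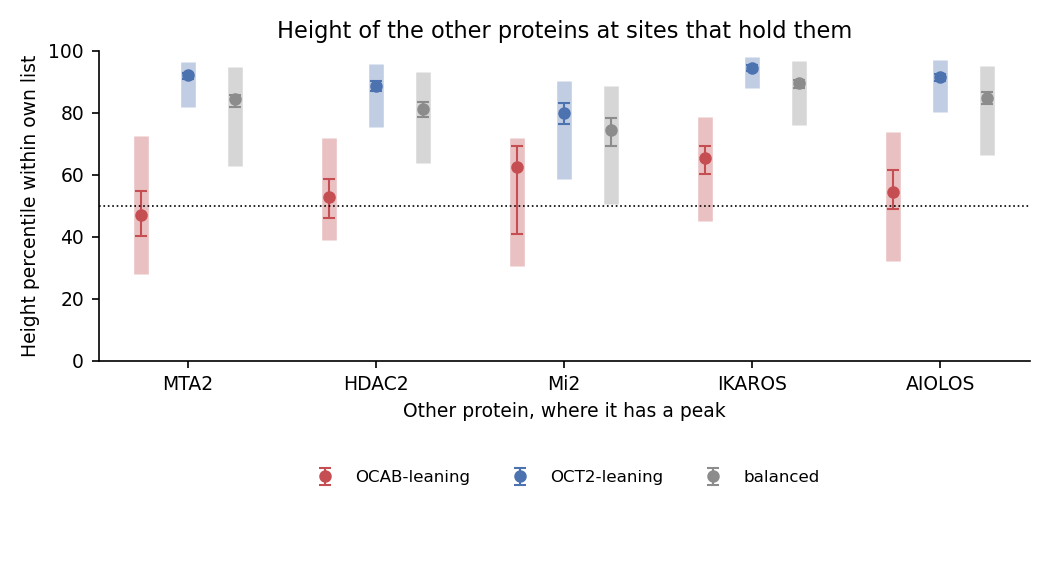
Points are the median height percentile of each other protein within its own list, at the OCAB-leaning, OCT2-leaning and balanced sites that hold it; error bars are 95% order-statistic intervals and pale bars run from the 25th to the 75th percentile of sites. The dotted line at 50 is the middle of each list, near which MTA2 (47) and HDAC2 (52.7) lie at OCAB-leaning sites.

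A restriction to the 10000 highest peaks of each list widened most gaps. The lists differ in length, with 53948 IKAROS and 10303 Mi2 peaks, so this limit could change the Mi2 gap little. MTA2 was then counted at 56 OCAB-leaning sites (15.9%, 12.5 to 20.1), 460 OCT2-leaning sites (86%, 82.8 to 88.7) and 557 balanced sites (59%, 55.8 to 62.1), a difference of -70.1 points between the leaning classes (-74.4 to -64.8). IKAROS was counted at 15.9% of OCAB-leaning sites (12.5 to 20.1), 82.8% of OCT2-leaning sites (79.4 to 85.8) and 57.8% of balanced sites (54.7 to 61). Its difference was -66.9 points (-71.4 to -61.5), against -21.1 over the whole lists. The AIOLOS difference was -62.6 points (-67.3 to -57), against -31.4 over the whole lists. HDAC2 differed by -57.4 points (-62.6 to -51.5) and Mi2 by -28.2 (-33.4 to -22.5).

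Set beside unpaired peaks of the same height, the leaning classes fell on opposite sides of the rest of the OCT2 list. This comparison was added after the values were seen and averages over 10 height classes. A protein counts only where it overlaps the peak of the list compared, OCT2 first and OCAB at the end. OCAB-leaning sites held MTA2 at 48%, against 64.9% of the 6298 OCT2 peaks without OCAB weighted to the same OCT2 heights, a difference of -16.8 points (-22.2 to -11.5). For HDAC2 the difference was -11.9 points (-16.8 to -6.86) and for Mi2 -6.17 (-9.76 to -2.58), while for IKAROS it was 0.0291 (-4.78 to 4.83) and for AIOLOS -3.56 (-8.80 to 1.68). OCT2-leaning sites held MTA2 at 94.4%, against 80.2% of unpaired OCT2 peaks so weighted, a difference of 14.2 points (11.7 to 16.7), and HDAC2 differed by 21.1 points (17.6 to 24.6). Against the 2609 OCAB peaks without OCT2 at the same OCAB heights, MTA2 was more frequent by 18.7 points at OCAB-leaning sites (12.7 to 24.7) and by 64 points at OCT2-leaning sites (61.1 to 66.8).

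The focus ratio, the share of a peak's tags that lie on the side of its centre their strand calls for, followed height in each list. OCAB peaks had a median focus of 0.844 at OCAB-leaning sites (quartiles 0.790 and 0.886), 0.722 at OCT2-leaning sites (0.667 and 0.781) and 0.786 at balanced sites (0.720 and 0.850), beside 0.783 for the whole OCAB list. OCT2 peaks had a median focus of 0.750 at OCAB-leaning sites, 0.776 at OCT2-leaning sites and 0.754 at balanced sites, beside 0.750 for the whole OCT2 list. Within a range of OCAB height the OCAB difference was smaller. Between the 50th and the 75th percentile of OCAB height, the median OCAB focus was 0.791 at 86 OCAB-leaning sites (0.772 to 0.825), 0.736 at 166 OCT2-leaning sites (0.719 to 0.750) and 0.768 at 227 balanced sites (0.755 to 0.783), beside 0.780 for all OCAB peaks in that range. Such a range does not make heights equal, because the rule also sorts sites by height within it. A difference in focus at equal height was therefore not tested. Among the highest 25% of OCAB peaks it was 0.857 at 250 OCAB-leaning sites (0.847 to 0.863) and 0.833 at 408 balanced sites (0.822 to 0.843). For OCT2 peaks the order turned round within ranges of OCT2 height, with the higher median at OCAB-leaning sites. Between the 50th and the 75th percentile of OCT2 height the median OCT2 focus was 0.763 at 102 OCAB-leaning sites (0.738 to 0.781), 0.744 at 128 OCT2-leaning sites (0.729 to 0.757) and 0.740 at 260 balanced sites (0.727 to 0.755). Between the 25th and the 50th percentile it was 0.750 at 119 OCAB-leaning sites (0.733 to 0.760), 0.734 at 36 OCT2-leaning sites (0.706 to 0.757) and 0.719 at 149 balanced sites (0.700 to 0.742). In both ranges the intervals of the leaning classes overlapped.

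Distance between the centres of both peaks hardly separated the classes. The median was 42 bp at OCAB-leaning sites (36 to 47), 46 bp at OCT2-leaning sites (41 to 52) and 40 bp at balanced sites (37 to 44). Centres lay within 50 bp at 58.5% of OCAB-leaning sites (53.3 to 63.6), 53.3% of OCT2-leaning sites (49 to 57.5) and 59.1% of balanced sites (55.9 to 62.2). MTA2 centres were a median of 71.5 bp from the OCAB centre and 59 bp from the OCT2 centre at OCAB-leaning sites, 45 and 37.5 bp at OCT2-leaning sites, and 60 and 46 bp at balanced sites. Where OCAB and OCT2 centres were at least 30 bp apart, MTA2 lay nearer OCT2 at 66 of 101 OCAB-leaning sites (65.3%, 55.7 to 73.9), 186 of 320 OCT2-leaning sites (58.1%, 52.7 to 63.4) and 272 of 473 balanced sites (57.5%, 53 to 61.9). IKAROS lay nearer OCT2 at 59.1% of such OCAB-leaning sites (51.4 to 66.5), 62.7% of OCT2-leaning sites (57.3 to 67.7) and 62.8% of balanced sites (58.5 to 66.9). AIOLOS lay nearer OCT2 at 51.1% of OCAB-leaning sites (42.8 to 59.3), 62% of OCT2-leaning sites (56.5 to 67.2) and 60.3% of balanced sites (55.9 to 64.6). For Mi2 the shares were 55.2% of OCAB-leaning sites (37.5 to 71.6), 52.5% of OCT2-leaning sites (44.3 to 60.6) and 56.9% of balanced sites (49.3 to 64.2), each interval spanning 50%. The Mi2 centre at OCAB-leaning sites was a median of 132 bp from the OCAB centre and 140 bp from the OCT2 centre. HDAC2 lay nearer OCT2 at 60.5% of OCAB-leaning (49.3 to 70.8), 57.5% of OCT2-leaning (51.8 to 63.1) and 63.3% of balanced sites (58.3 to 68). Its interval at OCAB-leaning sites spans 50%.

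As a description within the OCAB-leaning class, the 172 sites with MTA2 had a median OCAB height of 31.9 and a median OCT2 height of 12. The 180 sites without it had a median OCAB height of 34.2 and a median OCT2 height of 10.9. The 60 OCAB-leaning sites with none of the 5 other proteins had medians of 26.2 for OCAB and 10.4 for OCT2, and a median OCAB focus of 0.845, beside 0.844 for the whole class.

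Shared sites were spread over chromosomes 1 to 22 and X. OCAB-leaning sites made up 39.7% of all leaning sites (36.5 to 42.9), and per autosome that share ran from 20% of 30 on chromosome 9 (9.51 to 37.3) to 54.1% of 37 on chromosome 4 (38.4 to 69). Chromosome X held 10 shared sites, 0.546% of them, although it held 1.35% of OCAB peaks and 1.49% of OCT2 peaks, and 6 of its 7 leaning sites leaned to OCAB. The surroundings differed little next to what was found at the sites themselves: another MTA2 peak lay within 10 kb of 46.9% of OCAB-leaning sites (41.7 to 52.1), 52.7% of OCT2-leaning sites (48.5 to 56.9) and 49.7% of balanced sites (46.5 to 52.9), and the difference between the leaning classes, -5.84 points, had an interval of -12.5 to 0.886. AIOLOS (-10.1 points, -16.6 to -3.42), Mi2 (-6.46, -12 to -0.691) and OCT2 itself (-6.43, -11.5 to -1.12) had intervals below 0. The nearest shared site lay a median of 337 kb away from OCAB-leaning sites, 225 kb from OCT2-leaning sites and 225 kb from balanced sites. It lay within 100 kb of 27.3% of OCAB-leaning sites (22.9 to 32.2), 31% of OCT2-leaning sites (27.3 to 35.1) and 32.9% of balanced sites (30 to 36), and these intervals overlap.

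Windows of 1 Mb with at least 4 shared sites numbered 83 and held 384 sites, 49 of them OCAB-leaning, 124 OCT2-leaning and 211 balanced. Among all 1831 shared sites, 352 (19.2%) were OCAB-leaning, 535 (29.2%) OCT2-leaning and 944 (51.6%) balanced. The fullest window, chromosome 22 from 22 to 23 Mb, held 12 sites between 22385131 and 22786292, of which 4 leaned to OCAB, 0 to OCT2 and 8 were balanced. Its OCAB heights had a median of 30.2 and a maximum of 113.4, its OCT2 heights a median of 16.65 and a maximum of 67.6, and all 12 sites held IKAROS and 11 held MTA2. The next window, chromosome 22 from 23 to 24 Mb, held 9 sites (3 OCAB-leaning, 2 OCT2-leaning and 4 balanced), all with IKAROS and AIOLOS. Chromosome 22 also carries the immunoglobulin lambda light chain locus; gene positions on hg19 were not used here, so whether these sites lie in it was not determined. On chromosome 17 from 74 to 75 Mb, 8 sites held 0 OCAB-leaning and 4 OCT2-leaning members, with a median OCAB height of 14.8 and a median OCT2 height of 21.85. The window on chromosome 16 from 85 to 86 Mb held 7 sites, 3 of them with AIOLOS and 5 with MTA2, and that on chromosome 22 from 38 to 39 Mb held 7 sites, 4 with MTA2 and 0 OCAB-leaning. These were tied at 7 sites with chromosome 6 from 14 to 15 Mb (2 OCAB-leaning, 4 OCT2-leaning and 1 balanced) and chromosome 7 from 73 to 74 Mb (0 OCAB-leaning, 3 OCT2-leaning and 4 balanced).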

How the data were processed

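Per the submitters' processing notes, HOMER 4.9.1 and Bowtie2 2.3.2.2 were used on build hg19, after CASAVA in version 1.8.2 or, for HDAC2, 1.4. Peak height is the signal column the authors deposited, tags per 10 M. The whole tag count per peak, the fold over input (a ratio), the p-value over input and the focus ratio (a fraction) are also the authors' deposited values. How the OCAB and OCT2 peaks were called (parameters) was not given in the sources used here.

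From these lists, overlaps, list percentiles (ties averaged), classes and shares were computed in Python 3.11.15 (statsmodels 0.14.6, scipy 1.17.1, pandas 2.3.3, numpy 2.4.6), with figures from matplotlib 3.10.9. Another protein was present where its peak overlapped either peak of the pair by at least 1 bp. For shares of a whole list, overlap with the peak of that list was counted. Stratified differences used Mantel-Haenszel weights. The code was tested on simulated peaks. Intervals cover counting error only, and tags carry no molecular identifier.

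Sites and comparisons were chosen with earlier results of these data known. Named sites are the 5 most extreme in each leaning class, the 5 balanced sites with the highest mean percentile, sites at the limits and the 5 fullest windows, ties kept in the order of chromosome names. Named sites had at least 4-fold over input in both lists and lay on an autosome or X. Octamer motifs, promoters and genes were not analysed here, since no genome or annotation of hg19 was used.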

Additional observations from a re-analysis of the deposited data

How the results depend on the processing

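The difference between OCAB-leaning and OCT2-leaning sites was recomputed for 5 proteins under 13 alternatives each, and in all 65 it stayed negative with an interval below 0. MTA2 ran from -70.1 to -35.4 points, HDAC2 from -60.3 to -42.5, Mi2 from -29.7 to -19.8, IKAROS from -66.9 to -11.2 and AIOLOS from -62.6 to -17.2. Including comparisons with balanced sites, 194 of 195 kept sign and side; ranking by fold over input took IKAROS in OCAB-leaning against balanced sites to -3.12 points (-7.90 to 1.21), and the cause was not tested. No overlap held several peaks of a list, so reduction to the highest peak changed nothing. For that reason 1 of the 13 alternatives, overlaps with exactly 1 peak of each list, repeated the main values and adds no support. Another, autosomes only, kept 346 OCAB-leaning and 534 OCT2-leaning sites and could change little.

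Class sizes moved by construction. A limit of 40 points left 208 OCAB-leaning and 250 OCT2-leaning sites, and a limit of 15 points left 600 balanced sites. At least 8-fold over input in all lists left 205, 295 and 587 sites (OCAB-leaning, OCT2-leaning, balanced), and moving both tag counts by 1 SD, added after seeing the data, left 162 and 204 leaning sites. The focus difference (OCAB-leaning minus OCT2-leaning medians) was 0.122 for OCAB peaks, 0.144 at 40 points and 0.147 after the tag shift. For OCT2 peaks it was -0.026 over all heights, opposite in sign to the differences within ranges of OCT2 height, with -0.0415 at 40 points, -0.046 at 8-fold and -0.0475 after the tag shift.

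No paired analysis was possible because each antibody had 1 library. Octamer shares were not run. Depth limits the ranks: counting error alone spreads a peak of median tag count over the percentiles given in the results.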
